A study of Mus musculus with 42 samples.

Results

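The libraries described here are the 12 of 42 mouse brain libraries in which Drd2, the gene of the dopamine receptor that inhibits adenylyl cyclase, had 40 CPM (counts per 1000000 counts of the library) or more. They were chosen by that value alone, whatever their label, and were set against the 14 libraries with Drd2 under 10 CPM. The 16 libraries from 10 to under 40 CPM were on neither side and are described apart, with a slope of each gene on Drd2. Because Drd2 chose the sides and other genes move with it, values on the rich and poor sides are a description and no test was made between them.

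The series measured gene expression by RNA sequencing in mice fed for 12 weeks a western diet with 42% fat or a control diet with 11% fat. Groups with NaKtide, a peptide derived from the Na,K-ATPase that blocks its signalling through the kinase Src, carried a transgene induced by doxycycline at 300 mg/kg of diet. The labels do not name the strain, sex, age or promoter of the transgene, or say whether mice without NaKtide received doxycycline. Of the 42 libraries, 22 are labelled hippocampus (6 western NaKtide, 5 western, 5 control NaKtide and 6 control) and 20 cerebellum (5 in each of the same groups). A library is named below by its labels, such as hippocampus western NaKtide 6, although the region in a label often went against its marker genes. The series' own design text names liver and adipose tissue, not brain, so each group was taken from the label of its library. Nothing in the labels says that libraries of a group came from separate animals, and p-values measure only the spread between libraries, which may be technical.

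The striatum, a large nucleus under the cortex, is made mostly of medium spiny neurons, inhibitory cells that receive dopamine from the midbrain. Those of the direct pathway carry the dopamine receptor Drd1, which raises cyclic AMP, and the peptide genes Tac1 and Pdyn. Those of the indirect pathway carry Drd2, the adenosine receptor Adora2a and the enkephalin gene Penk. Both kinds share DARPP-32, the protein of Ppp1r1b, which inhibits protein phosphatase when cyclic AMP rises, and a set of cyclic AMP genes that includes Adcy5, Gnal, Gng7, Pde1b and Pde10a. Neither the hippocampus nor the cerebellum holds medium spiny neurons.

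Promoter sequences of members are shown because their genes varied together across these libraries. Each runs from 250 bases before the annotated start to 50 bases after it, 5′ to 3′, from RefSeq on build GRCm38.p6. Drd2, which chose the libraries, is at chr9:49340153-49340452 on the plus strand. Gpr6, an orphan receptor of indirect pathway neurons, is at chr10:41072241-41072540 on the minus strand. Tac1, the substance P precursor of direct pathway neurons, is at chr6:7554811-7555110 on the plus strand. Rgs9, a regulator that shortens receptor signalling to G proteins in the striatum, is at chr11:109298132-109298431 on the minus strand. Capitals mark the core of the cyclic AMP response element (TGACG, or CGTCA on the other strand; in Gpr6 the whole element TGACGTCA), and in Rgs9 the letters TATAAA.
Drd2: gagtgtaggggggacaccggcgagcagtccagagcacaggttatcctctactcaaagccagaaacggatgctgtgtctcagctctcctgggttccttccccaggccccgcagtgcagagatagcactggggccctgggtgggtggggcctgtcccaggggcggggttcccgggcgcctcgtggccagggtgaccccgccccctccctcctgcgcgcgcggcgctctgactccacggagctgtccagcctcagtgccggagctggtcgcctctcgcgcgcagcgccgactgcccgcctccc
Gpr6: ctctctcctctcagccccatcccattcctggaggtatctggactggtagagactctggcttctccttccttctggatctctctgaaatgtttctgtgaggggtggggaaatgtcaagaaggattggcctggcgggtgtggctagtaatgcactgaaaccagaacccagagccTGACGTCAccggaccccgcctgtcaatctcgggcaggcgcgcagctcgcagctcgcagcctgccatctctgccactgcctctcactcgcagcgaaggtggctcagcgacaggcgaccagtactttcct
Tac1: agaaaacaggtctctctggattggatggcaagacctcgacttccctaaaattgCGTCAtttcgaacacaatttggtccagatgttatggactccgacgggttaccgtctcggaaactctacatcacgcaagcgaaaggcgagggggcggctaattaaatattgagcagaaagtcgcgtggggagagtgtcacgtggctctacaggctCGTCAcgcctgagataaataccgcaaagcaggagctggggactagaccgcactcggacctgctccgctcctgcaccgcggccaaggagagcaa
Rgs9: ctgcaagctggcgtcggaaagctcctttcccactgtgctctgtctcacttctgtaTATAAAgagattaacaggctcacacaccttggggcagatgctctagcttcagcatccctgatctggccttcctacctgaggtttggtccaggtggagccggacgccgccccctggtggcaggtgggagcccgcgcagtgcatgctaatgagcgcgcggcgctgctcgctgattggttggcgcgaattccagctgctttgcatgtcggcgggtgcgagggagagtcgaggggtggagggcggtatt

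The RefSeq table held a promoter for 13 of the 24 medium spiny neuron genes whose ranges on the sides did not overlap, and Penk, Ppp1r1b and Adora2a were not among them. Some genes have several promoters in the table, and the counts here use the first listed for each gene. By that count the core TGACG was found on either strand in 3 of the 13 (23.1%), Gpr6, Slc35d3 and Tac1, against 5681 of all 27025 promoters of the same length (21%). The whole element TGACGTCA, which contains the core and reads the same on both strands, was in Gpr6 alone (7.69%), against 1.88% of all promoters. TATAAA was on either strand in the first promoter of Rgs9 alone (7.69%), against 14.2%, and AGGTCA, a motif of retinoid receptors, was in 0 of the 13, against 16.0%. Among the 7 further promoters of these genes, the core was in the second of Gng7, TATAAA in the second of Pde1b and AGGTCA in the second of Rxrg. A match is a description of letters, and the binding of no factor was measured. GC content was 70.3% in Drd2, 60.3% in Rgs9, 58.7% in Gpr6 and 54.0% in Tac1.

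Depth was similar on both sides. Library totals ran from 5754798 to 9521002 counts on the rich side and from 5046157 to 8345802 on the poor side, and the share of counts in mitochondrial genes ran from 5.89% to 9.60% and from 5.30% to 11.6% in the same order. Within the rich side some libraries stood close to each other. Hippocampus control 5 and 6 differed least of all pairs (a mean chi-square of 2.62 over 14055 genes, where sampling noise alone gives about 1), and cerebellum western NaKtide 5 was next, at 3.94 from control 6 and 6.45 from control 5. The next pair stood at 7.09. All differed by more than the sampling noise and were counted as separate libraries. Xist, the RNA that silences an X chromosome in females, was above 5 CPM in 4 libraries, all of them rich: hippocampus western NaKtide 6 (162 CPM), cerebellum western NaKtide 5 (38.4), hippocampus control 5 (11.4) and hippocampus control 6 (9.90). Results are therefore also given without the 3 close libraries and without these 4.

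Drd2 (chr9:49340627-49408177, build GRCm38, GENCODE M21) ran from 44.4 CPM in cerebellum control 5 to 207 CPM in hippocampus western NaKtide 6 on the rich side, with a median of 72.1. On the poor side it ran from 1.68 CPM in cerebellum western 3 to 7.43 CPM in hippocampus western 3. Cerebellum control NaKtide 2 (164 CPM), cerebellum western NaKtide 1 (156) and hippocampus control 3 (104) followed the highest library. Just outside the upper limit was hippocampus western NaKtide 1, with 37.9 CPM, and just above the lower limit hippocampus western NaKtide 2, at 10 CPM. Values were thus spread without a gap at either limit.

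**Figure D1:**
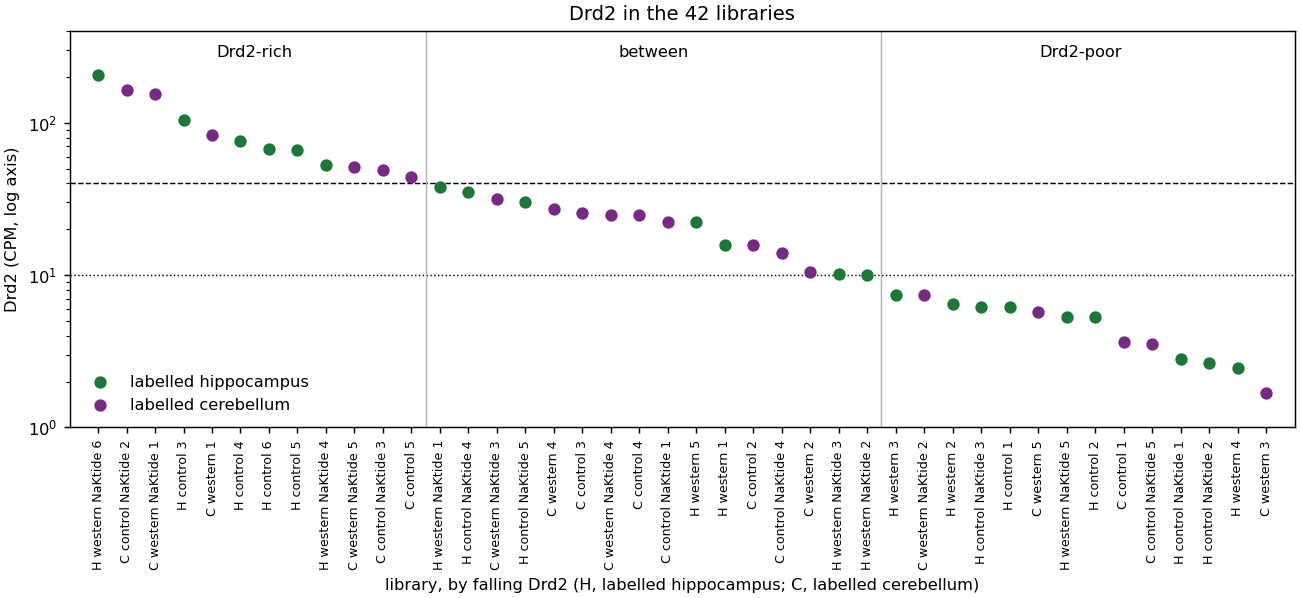
Drd2 in CPM (log axis) in each of the 42 libraries, ordered by value, with the limits of 40 and 10 CPM as lines. The rich libraries span 44.4 to 207 CPM and the poor ones 1.68 to 7.43 CPM, and libraries of both region labels occur on each side.

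The region labels did not divide the sides. Of the 12 rich libraries 6 are labelled hippocampus and 6 cerebellum, and of the 14 poor ones 9 and 5. Gabra6, the GABA receptor subunit of cerebellar granule cells, had 0 to 0.348 CPM in the rich libraries, those labelled cerebellum included. On the poor side it had 0 to 225 CPM, with 225 in cerebellum western 3 and 133 in cerebellum control NaKtide 5. The summed level of 12 dentate and pyramidal genes of the hippocampus ran from 234 to 507 CPM (median 318) in rich and from 275 to 885 CPM (median 421) in poor libraries. The 12 libraries are therefore called Drd2-rich, by the rule that chose them.

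Across the whole table, 16886 genes had a mean of at least 1 CPM on a side. In 38 of them (0.225%) every rich library was above every poor one, and in 0 (0%) every rich library was below. Of the 38, 30 (0.178% of all) also had a mean at least 4 times as high. The lists of medium spiny neuron genes held 24 of the 38 and 20 of the 30, out of 50 genes found in the table, with Gpr52 not matched. Drd2, which the rule itself put apart, is included in these counts and in the values that follow for the 50 genes. By the median of log2 ratios, rich over poor, the 50 genes stood at 2.03 and all genes at -0.03. The mean was higher on the rich side for 47 of the 50, at least 2 times as high for 39 and at least 4 times as high for 27. In bulk libraries fewer cells of a type and less RNA per cell cannot be told apart. Since the rule used these same libraries, nothing is read from these counts beyond which genes they name.

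**Figure D2:**
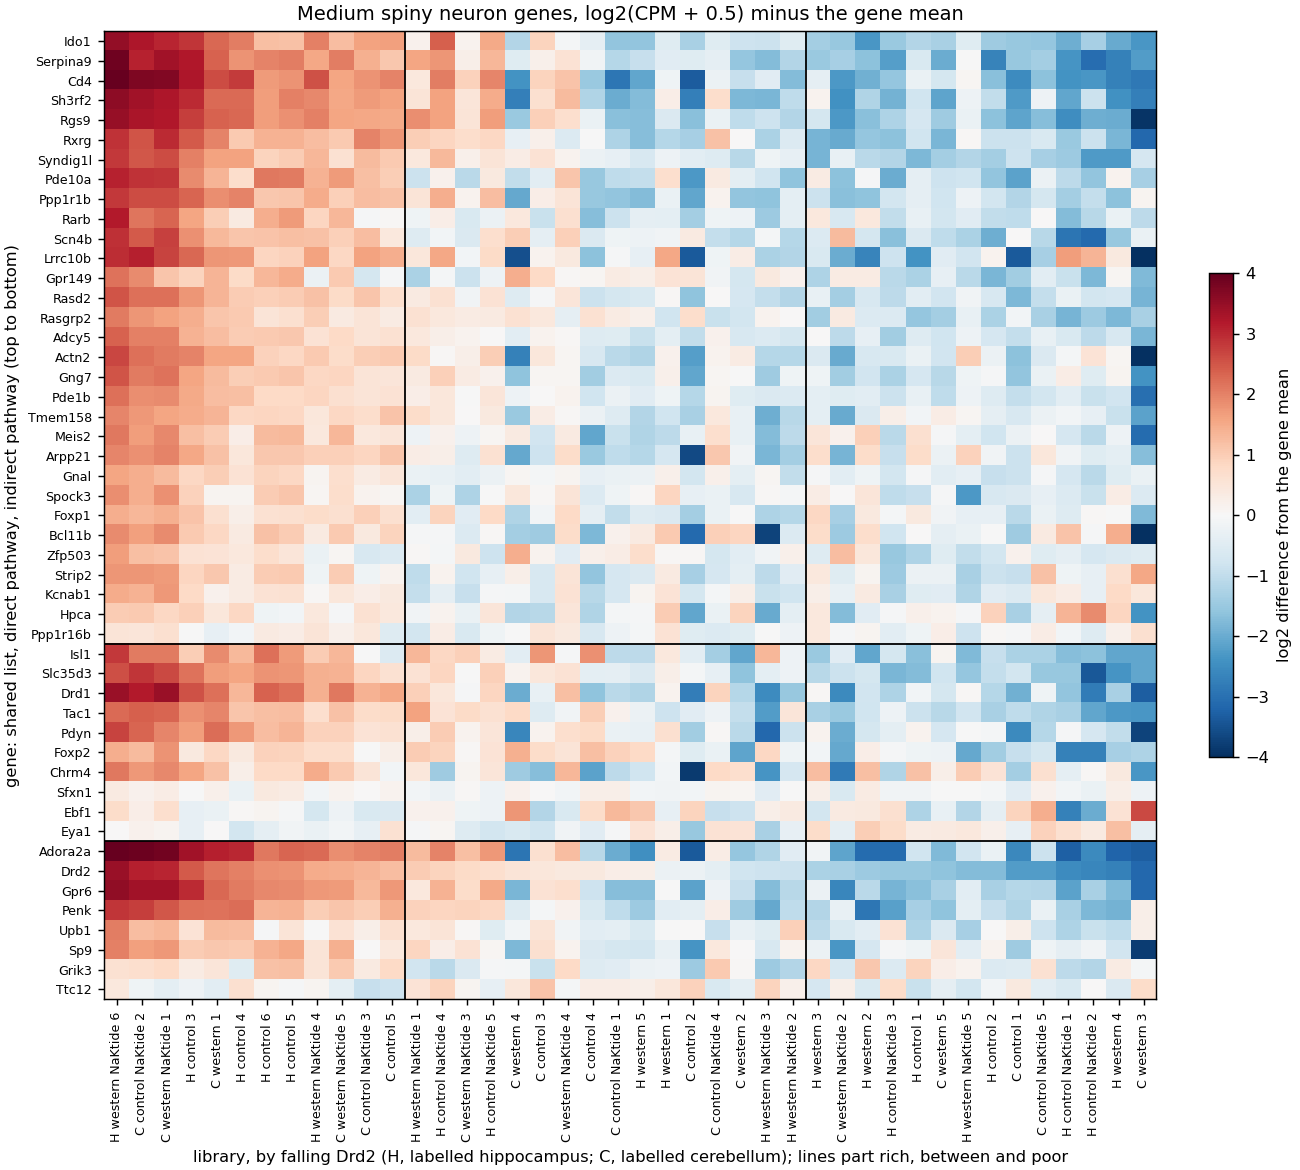
Level of 49 of the 50 medium spiny neuron genes (rows) in the 42 libraries (columns, ordered by Drd2), as log2(CPM + 0.5) minus the gene's mean over all libraries. Most rows are high in the 12 rich libraries, while Ebf1, Eya1, Ttc12, Hpca, Ppp1r16b and Sfxn1 do not follow.

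In the indirect pathway list, 4 of 8 genes had ranges apart, Drd2 included. Adora2a (chr10:75316877-75334784) had 63.4 to 346 CPM (median 115) in rich and 1.30 to 15.5 CPM (median 3.02) in poor libraries, and its means of 149 ± 94.1 and 5.62 ± 5.02 CPM (SD, n = 12 and 14) stood 26.5 times apart. The lowest rich library was far above the highest poor one, but the limits on Drd2 left a gap between the sides. Between the limits Adora2a ran from 1.23 to 68.7 CPM, which reaches the rich range. Gpr6 had 14.6 to 71.4 CPM in rich and 0.186 to 4.63 CPM in poor libraries. Penk had 418 to 1522 CPM in rich and 28.2 to 248 CPM in poor libraries, a ratio of means of 7.90. Its ranges did not overlap either. The other members of this pathway list overlapped: Sp9, a transcription factor of indirect pathway neurons, had 6.62 to 27.7 CPM in rich and 0 to 9.35 CPM in poor libraries. Grik3, a kainate receptor subunit, ran from 28.3 to 92.4 and from 17.6 to 85.3 CPM on the same sides, Upb1 reached 5.88 and 1.78 CPM at most, and Ttc12 averaged 3.63 CPM on both. The log2 ratio of Ttc12 was 0.56 among libraries labelled hippocampus and -0.77 among those labelled cerebellum.

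In the direct pathway list, 4 of 10 genes had ranges apart. Drd1 (chr13:54051183-54055705) had 25.7 to 114 CPM (median 47.5) in rich and 0.559 to 10.4 CPM (median 4.09) in poor libraries, and its means of 57.0 ± 32.4 and 5.01 ± 3.43 CPM (SD) had a ratio of 11.4. Every rich library was above every poor one for Drd1, a gene of other cells than those that carry most Drd2. Tac1 averaged 89.4 ± 40.6 CPM in rich and 12.6 ± 5.20 CPM in poor libraries (SD), and Pdyn, the dynorphin precursor, had 44.7 to 203 and 1.86 to 33.4 CPM. Slc35d3, a membrane protein that in mice moves the Drd1 receptor to the cell surface, averaged 19.6 CPM in rich and 1.57 CPM in poor libraries. Isl1, a transcription factor of direct pathway neurons, was 14.9 times as high by the mean but overlapped, at 0.948 to 14.5 CPM in rich and 0 to 1.74 CPM in poor libraries. Foxp2 and the muscarinic receptor Chrm4 also overlapped, with ratios of 3.42 and 1.96. Ebf1 (ratio 0.678) and Eya1 (0.645), both transcription regulators, averaged lower on the rich side, and Sfxn1 had a ratio of 1.15. Ebf1 was lower only among libraries labelled cerebellum (log2 -1.51, against 0.44 among those labelled hippocampus). Over all rich and poor libraries its log2 ratio was -0.56, and -0.10 without cerebellum western 3.

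Genes that both pathways share made up 16 of the 24. Ppp1r1b (chr11:98348404-98357796) had 522 to 1906 CPM (median 868) in rich and 84.1 to 291 CPM (median 151) in poor libraries, with means of 1020 ± 497 and 153 ± 59.7 CPM (SD). Every poor library held it, and the highest of them had less than the lowest rich library. Rgs9 averaged 183 CPM in rich and 11.3 CPM in poor libraries, a ratio of 16.1. Among genes of cyclic AMP, the ratios were 6.96 for the phosphodiesterase Pde10a, 4.07 for the adenylyl cyclase Adcy5, 3.95 for the G protein subunit Gng7, 3.91 for the phosphodiesterase Pde1b and 2.50 for Gnal, the G protein that couples Drd1 to the cyclase. These ratios were smaller than those of Drd1 and Adora2a, and poor libraries kept 103 CPM of Adcy5 and 135 CPM of Gnal on average.

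Regulators and less known members were also higher by the mean. Rxrg, a retinoid X receptor, averaged 52.3 ± 26.2 CPM in rich and 5.07 ± 2.94 CPM in poor libraries (SD). The largest ratios in the shared list belonged to Ido1 (30.9), which breaks down tryptophan, the serpin Serpina9 (26.5), Cd4 (24.2), known as a receptor of T cells, and Sh3rf2 (18.4). These are low genes: Ido1 averaged 12.6 CPM in rich and 0.409 CPM in poor libraries. Cd4 averaged 35.8 and 1.48 CPM. Syndig1l (8.43), Rasd2 (4.87) and Tmem158 (3.03) completed the shared genes with ranges apart. Scn4b, a sodium channel subunit, had a ratio of 5.41 with overlapping ranges, 136 to 763 CPM in rich and 11.3 to 241 CPM in poor libraries. Hpca, a neuronal calcium sensor that the hippocampus also holds, averaged 874 ± 247 and 747 ± 560 CPM, a ratio of 1.17 that turned with the label: its log2 value was -0.18 among libraries labelled hippocampus and 1.44 among those labelled cerebellum.

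Outside these lists, 14 genes had ranges apart. Lhx8, a transcription factor of cholinergic neurons of the ventral forebrain, had 0.406 to 10.9 CPM in rich libraries, and in the poor ones it was at 0 in 10 and reached 0.267 CPM at most. Six3, needed in mice for indirect pathway neurons to form, averaged 27.3 ± 15.3 CPM in rich and 1.84 ± 1.58 CPM in poor libraries (SD), and Dlx6, a homeobox gene of inhibitory neurons, 25.1 and 5.27 CPM. The tyrosine phosphatase genes Ptprv (chr1:135108497-135132594) and Ptpn7 (chr1:135132700-135145317), which are neighbours on opposite strands, averaged 6.00 and 2.72 CPM in rich libraries and 0.539 and 0.212 CPM in poor ones. How the authors' counting treated reads between these neighbours is not given. Ptpn5, the striatum-enriched phosphatase that acts on glutamate receptors, averaged 384 CPM in rich and 176 CPM in poor libraries, a ratio of 2.18. Inf2, a formin of the actin skeleton, had a ratio of 3.03, the fibronectin receptor gene Itga5 3.50, Lmo2 1.89, Dmkn 6.84 and Clspn, a checkpoint gene of DNA replication, 6.09. Olfr1393, Gm39043 and Gm36737 reached at most 0.359, 0.365 and 0.332 CPM in a poor library.

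Around the receptors, the wider list of dopamine receptor signalling had 30 genes at a level that counted. Of these, 9 had ranges apart, and all 9 are also medium spiny neuron genes. The mean was higher on the rich side for 24, with a median log2 ratio of 0.60. Genes with a wide use in the brain stayed close to a ratio of 1: Gnb1 1.04, Prkaca 0.945 and Gnai1 0.930. Adcy1, a cyclase of cortex and hippocampus, had a ratio of 0.556, and Drd5, the other receptor of the Drd1 class, 0.676. Drd3 was at 0 in every poor library and between 0 and 0.717 CPM in rich ones, at or under the level of a few counts.

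Among genes of striatal interneurons, Lhx8 alone of 10 had ranges apart, and 8 of 10 had a higher mean on the rich side. Chat, the enzyme that makes acetylcholine, averaged 4.49 CPM in rich and 0.978 CPM in poor libraries. Nkx2-1, a regulator of ventral forebrain interneurons, averaged 3.57 and 0.256 CPM. Chat reached 8.01 CPM in a poor library, so the sides overlapped. Pvalb, a calcium-binding protein of fast interneurons that the cerebellum also holds, averaged 116 CPM in rich and 230 CPM in poor libraries. Of 9 subpallial genes counted, Six3 and Dlx6 had ranges apart and all 9 had a higher mean on the rich side, from a log2 ratio of 0.25 upward.

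Genes of other regions and cell types gave 0 with ranges apart in any list. Median log2 ratios were -2.96 for the cerebellum, -1.55 for dentate and pyramidal hippocampus, -5.18 for hindbrain and serotonin neurons, -0.16 for neocortex, -0.20 for midbrain dopamine neurons and 0.06 for thalamus and habenula. Those of support cells were 0.18 for oligodendrocytes, -0.30 for astrocytes, 0.28 for microglia, 0.17 for endothelium and pericytes, -0.17 for choroid plexus, -0.21 for ependymal cells and -0.92 for red blood cells. Pituitary genes stood at -1.76 and hypothalamic genes at 2.03. These are ratios of means, which single libraries can move. Median summed levels of cerebellar genes were 546 CPM in rich and 432 CPM in poor libraries, with a poor maximum of 6680 CPM. For hindbrain and serotonin neurons they were 1.45 and 2.17 CPM (poor maximum 327), and for pituitary 298 and 236 CPM (poor maximum 693). For dentate and pyramidal hippocampus they were 318 and 421 CPM, and for hypothalamus 51.1 and 23.0 CPM. Summed levels of the shared medium spiny neuron list ran from 4562 to 12442 CPM in rich and from 1257 to 3414 CPM in poor libraries, with no overlap. Neocortical genes summed to 345 to 3162 CPM in rich and 842 to 3741 CPM in poor libraries, oligodendrocyte genes to 4707 to 12095 and 2316 to 16915 CPM, and red blood cell genes to 675 to 1626 and 248 to 5559 CPM. The part of these other tissues in the values above was not tested.

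**Figure D3:**
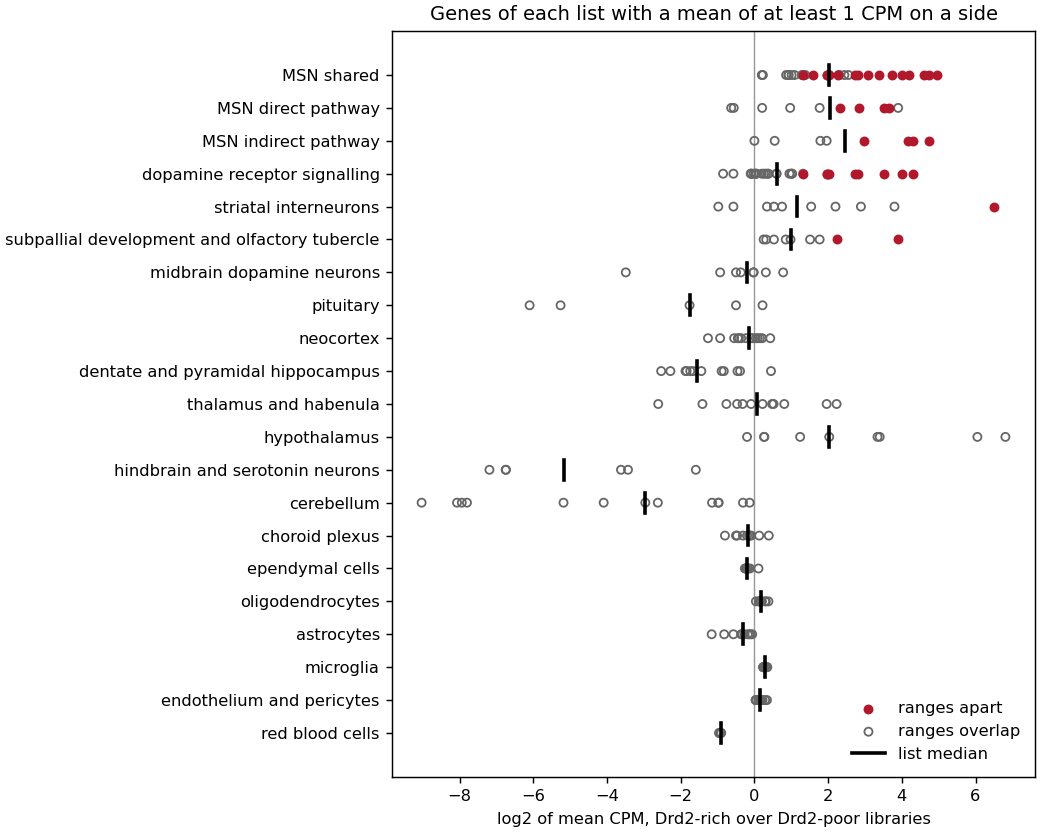
Log2 ratio of mean CPM, rich over poor, for each gene (points) of each list, with the median of the list marked. The 3 medium spiny neuron lists have medians of 2.03, 2.05 and 2.47. The hypothalamus list also has a median of 2.03, striatal interneurons have one of 1.15 and red blood cells one of -0.92.

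Rich libraries differed in what else they held. The library highest in Drd2, hippocampus western NaKtide 6, had 49.9 CPM of Slc17a7, the vesicular glutamate transporter of cortex and hippocampus, and the other 11 had 582 to 1630 CPM. Its neocortical sum of 345 CPM was the lowest on the side. Hippocampus control 4 held 5097 CPM of Ttr, the transthyretin of choroid plexus, and 6662 CPM of choroid plexus genes in all. The orexin gene Hcrt, made in the lateral hypothalamus, had 61.1, 60.4 and 31.7 CPM in the 3 close libraries and 0 to 4.87 CPM in the other 9. Pmch, another peptide of that region, had 83.6, 81.3 and 55.2 CPM in those 3 and at most 12.7 CPM elsewhere on the rich side. Summed over the hypothalamic list, the 3 had 299, 292 and 186 CPM and cerebellum western 1 had 130 CPM, above the poor maximum of 94.6 CPM, and the other 8 rich libraries had 18.2 to 68.7 CPM.

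Within the rich side, ratios between genes varied less than levels. Drd2 itself spanned 44.4 to 207 CPM, while Ppp1r1b over Drd2 stayed between 8.37 and 14.2 (median 11.1), a span of 1.70 times. The spans were 1.64 times for Rgs9 over Drd2, 1.66 for Adora2a (1.11 to 1.85) and 1.76 for Penk (7.35 to 12.9). Drd1 over Drd2 varied more, at 0.337 to 0.873 (2.59 times), lowest in hippocampus control 4 and highest in cerebellum western NaKtide 5. Pde10a over Drd2 spanned 3.00 times, with 2.89, 2.87 and 2.86 in the 3 close libraries and 0.961 in hippocampus control 4. Outside the rich side these ratios were wide: Adora2a over Drd2 spanned 29.2 times between the limits and 10.7 times on the poor side, and Ppp1r1b over Drd2 8.88 and 15.2 times. Drd2 is the denominator and chose the sides, and low counts widen ratios in poor libraries, so these spans are given as a description.

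Levels of different genes can be compared only per length, in the FPKM that the authors deposited. By that measure the median over rich libraries was 460 FPKM for Penk, 292 for Ppp1r1b, 291 for Hpca, 86.6 for Pde1b and 85.2 for Gng7. Adora2a had 35.9 FPKM, Drd2 26.9, Rgs9 22.8 and Drd1 12.4, in a rich range of 17.7 to 76.2 for Drd2 and 6.82 to 30.9 for Drd1. Pdyn and Tac1 had 28.9 and 19.0 FPKM, the other dopamine receptors under 1: 0.844 for Drd5, 0.147 for Drd3 and 0.0839 for Drd4. On the poor side the medians were 208 FPKM for Hpca, 55.6 for Penk, 50.0 for Ppp1r1b, 2.05 for Drd2, 1.15 for Drd1 and 0.991 for Adora2a. Among the medium spiny neuron genes, Hpca had the highest median on the poor side and Penk on the rich side.

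Between the limits, libraries differed in the genes that accompanied Drd2. Of the 16 libraries, 10 had Slc6a3, the dopamine transporter of midbrain dopamine neurons, at 10 CPM or more, a split chosen after the values were seen. Midbrain dopamine neurons carry Drd2 themselves, as an autoreceptor. In those 10, Drd2 had up to 37.9 CPM (median 23.6) and Adora2a 1.23 to 41.5 CPM (median 6.61). In the other 6, Slc6a3 was 0 to 1.28 CPM, Drd2 10.2 to 34.9 CPM (median 20.3) and Adora2a 7.12 to 68.7 CPM (median 31.3). Medians of Ppp1r1b were 91.3 CPM in the 10 and 341 CPM in the 6. Cerebellum control 4 had 24.8 CPM of Drd2 with 148 CPM of Slc6a3 and 7.73 CPM of Adora2a, whereas hippocampus control NaKtide 4 had 34.9 CPM of Drd2 with 1.28 CPM of Slc6a3 and 68.7 CPM of Adora2a. The part of midbrain tissue in Drd2 was not tested. In the rich libraries the summed level of midbrain dopamine genes was 63.7 to 120 CPM, in the poor ones 32.2 to 429 CPM and between the limits 50.9 to 680 CPM.

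**Figure D4:**
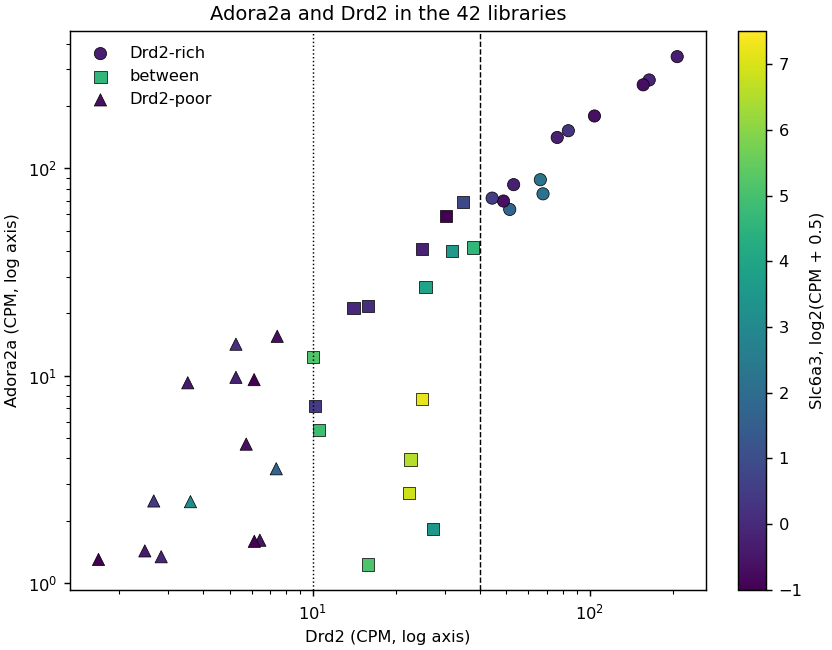
Adora2a against Drd2, both in CPM on log axes, with each of the 42 libraries coloured by its level of Slc6a3. The rich libraries lie along a narrow band of 1.11 to 1.85 Adora2a per Drd2. Between the limits, the 10 libraries with Slc6a3 at 10 CPM or more span 0.0674 to 1.26, and the other 6 span 0.696 to 1.97.

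In the 16 libraries between the limits, which are on neither side, a slope was tested for each gene. It is the slope of the gene's log2 level on log2 Drd2, with the region label as a covariate. Drd2 also placed these libraries, so its range was cut, and the gene lists were chosen with earlier results of these data known. The test is therefore not independent of the rule or of these data. At an adjusted p under 0.05 edgeR called none of 16287 genes (0 called, 0%), and DESeq2 called 3, Tac2, Serpina9 and Trappc2. In edgeR 462 genes had an unadjusted p under 0.05, fewer than the 1 in 20 that this limit allows without any slope. Of the medium spiny neuron genes, 47 were tested and 0 were called by edgeR. Their slopes were positive for 41, with 19 at an unadjusted p under 0.05, and their median was 0.44, against -0.01 for all genes. Serpina9 had 0.742 to 13.5 CPM in these libraries (median 2.60) and a slope of 1.69 ± 0.29 (SE; edgeR adjusted p = 0.399; DESeq2 adjusted p = 0.000841). Penk had 51.2 to 402 CPM and a slope of 1.07 ± 0.26 (edgeR adjusted p = 0.987), Rgs9 9.66 to 120 CPM and 1.38 ± 0.35, and Adora2a 1.23 to 68.7 CPM and 1.36 ± 0.51. Slopes of Drd1 (0.98) and Ppp1r1b (0.96) were positive, without an unadjusted p under 0.05 for Drd1. None of these single slopes passed in edgeR. With Slc6a3 as a further covariate 43 of 49 slopes were positive and the median stayed at 0.44, and over the 6 libraries with Slc6a3 under 5 CPM it was 0.78 with 41 of 48 positive.

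Other genes named by the smallest p with a positive slope were Tac2, the neurokinin B precursor (2.01 ± 0.48, edgeR adjusted p = 0.987, DESeq2 adjusted p = 0.0447), the Wnt agonist Rspo1 (1.46), Cited4 (0.93), the oxytocin gene Oxt (4.68), Syndig1l (0.71) and Plcxd1 (0.55). With a negative slope they were Trappc2, a part of a vesicle transport complex (-0.50 ± 0.09, edgeR adjusted p = 0.425, DESeq2 adjusted p = 0.00214), Dock9 (-0.67), the glial membrane gene Gpm6b (-0.60), Msl3 (-0.50), Peak1 (-0.74), Eps8 (-0.44), Nt5dc3 (-0.59) and Nrip3 (-0.56). Of 10 midbrain dopamine genes 8 had a negative slope, with a median of -0.23.

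Diet and NaKtide groups were spread over both sides. Among libraries labelled hippocampus, western NaKtide had 2 rich, 3 between and 1 poor, western 0, 2 and 3, control NaKtide 0, 2 and 3, and control 4, 0 and 2. Among those labelled cerebellum, western NaKtide had 2, 2 and 1, western 1, 2 and 2, control NaKtide 2, 2 and 1, and control 1, 3 and 1. Only hippocampus western and hippocampus control NaKtide held no rich library. Drd2 in hippocampus western NaKtide ran from 5.27 to 207 CPM (median 24.1), in hippocampus western from 2.47 to 22.2 CPM (median 7.43), in hippocampus control NaKtide from 2.66 to 34.9 CPM (median 6.14) and in hippocampus control from 5.27 to 104 CPM (median 67.1). The 4 cerebellum groups had medians of 31.8 CPM (western NaKtide), 10.5 (western), 22.5 (control NaKtide) and 24.8 (control). All 8 groups overlapped in Drd2.

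**Figure D5:**
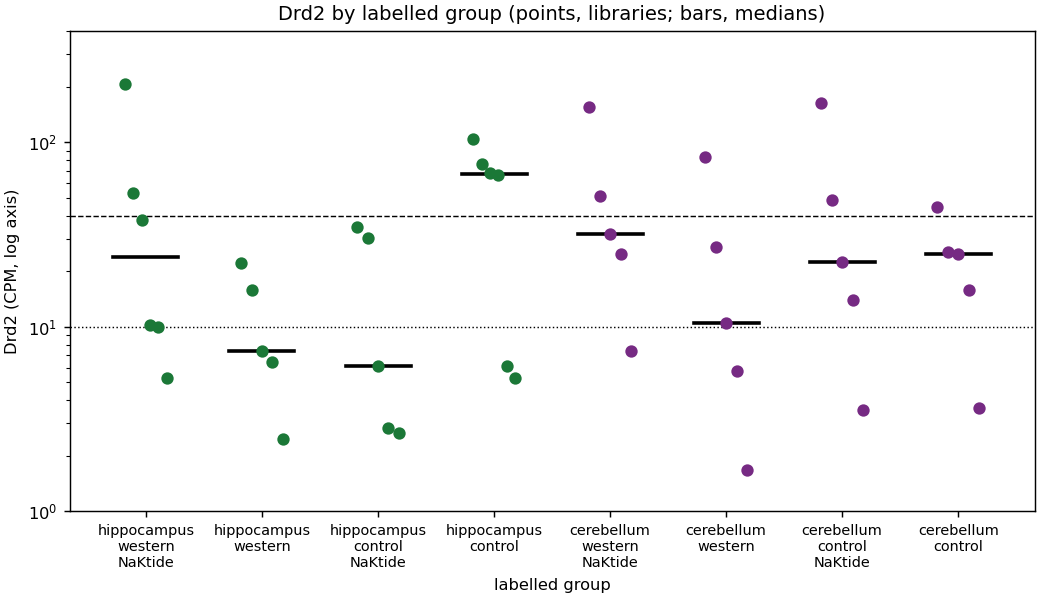
Drd2 in CPM (log axis) for each library (points) in the 8 groups of the labels, with lines at 40 and 10 CPM. Of the 8 groups 6 reach above the upper line, and all 8 hold at least 1 library below the lower line.

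Fisher's exact test over the 26 rich and poor libraries, two-sided and adjusted over 7 tests, gave an adjusted p of 1.00 for each label. Of the 15 hippocampus libraries on either side 6 were rich, against 54.5% of the cerebellum libraries (exact p = 0.692). Western diet libraries were rich in 41.7% and control diet libraries in 50.0% (exact p = 0.713). With NaKtide 50.0% were rich and without it 42.9% (exact p = 1.00). In cerebellum libraries alone, 4 of 6 with NaKtide and 2 of 5 without it were rich (exact p = 0.567). A p above the threshold with so few libraries does not show that the groups were alike. Each diet test pooled over NaKtide and each NaKtide test over diet, so opposite differences could cancel. Among hippocampus libraries, control had 4 rich and 2 poor, control NaKtide 0 and 3, western 0 and 3, and western NaKtide 2 and 1.

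Medium spiny neuron genes were also counted in each contrast of labelled groups, fitted in edgeR over all libraries of a region label. In hippocampus libraries, western NaKtide against western, 5542 of 16442 genes (33.7%) were called, and of the 50 medium spiny neuron genes 18 were higher and 1 was lower. Taken in both directions, 19 of 50 is close to the share of all genes, but of all genes 2856 were higher and 2686 lower. Rxrg had 4.75 to 94.7 CPM (median 18.5) in western NaKtide libraries, against 3.04, 3.12, 3.39, 3.86 and 5.23 CPM in western ones. It was 3.03 ± 0.75 higher on the log2 scale (SE; edgeR adjusted p = 0.00611), and 6 of 6 western NaKtide libraries were above the western mean. Sp9 had 4.01 to 27.7 CPM in western NaKtide and 3.65 to 5.48 CPM in western libraries, a log2 change of 1.40 ± 0.39 (adjusted p = 0.0111, 5 of 6 libraries). Other genes called higher included Adora2a (3.31), Ppp1r1b (2.31), Penk (2.48), Tac1 (2.03) and Adcy5 (1.25), and Eya1 fell by 0.92 (adjusted p = 0.0226). Drd2 itself was at 2.39 ± 0.95 (adjusted p = 0.0563, above the western mean in 3 of 6 libraries) and did not pass in this fit. It passed in DESeq2 (2.36, adjusted p = 0.0360) and in 4 edgeR fits that left out 1 library (adjusted p from 0.0380 to 0.0477), and it was 1.27 without hippocampus western NaKtide 6 (edgeR adjusted p = 0.254).

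That count rested on few libraries. Without hippocampus western NaKtide 6, which had the most Drd2, 3 of the 50 were called higher and 4 lower (34.8% of all genes), and without the 4 libraries with Xist 2 were higher and 3 lower (33.8%). The change of Sp9 was then 0.92 without western NaKtide 6. Without western 2, 3 or 4 in turn, 4, 9 and 4 of the 50 were called, with 22.9%, 24.4% and 22.9% of all genes. Without the 3 close libraries 14 were higher and 1 lower (32.5%). The median log2 change of the 50 genes was 1.31, and 0.63 without the libraries with Xist, against 0.05 for all genes in both fits.

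Western against control in hippocampus libraries shares the western group with the contrast above. Here 0 of 16442 genes (0%) passed in edgeR, while 4046 had an unadjusted p under 0.05, 27 of them medium spiny neuron genes, and DESeq2 called 534 genes higher and 291 lower, with 1 and 9 of the 50. Sp9 averaged 4.39 ± 0.889 CPM in western and 13.0 ± 5.65 CPM in control libraries (SD; log2 change -1.60 ± 0.39 SE, edgeR adjusted p = 0.0787). Rxrg averaged 3.73 ± 0.898 and 29.0 ± 22.9 CPM (-3.01 ± 0.75, adjusted p = 0.0795). In both genes 5 of 5 western libraries were below the control mean, and neither change passed in this fit. Both passed in DESeq2 (adjusted p = 0.00948 for Sp9 and 0.00706 for Rxrg) and in edgeR with only the 2 groups (0.0485 and 0.0450), without the libraries with Xist (0.0225 and 0.0203) and without control 6 (0.0480 and 0.0472). Over all edgeR settings the adjusted p ran up to 0.262 for both. Without the libraries with Xist 6 of the 50 were called lower (13.4% of all genes), and without the 3 close libraries 2 were (13.4%). Leaving out hippocampus control 6 alone gave 2 (3.14% of all genes).

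The other contrasts called 0 of the 50 genes in edgeR. Control NaKtide against control in hippocampus libraries called 0 genes (0%; 2720 at an unadjusted p under 0.05, 8 of them in the lists; DESeq2 called 1 gene and 0 in the lists), with the smallest p for Grik3 (log2 change -1.18, adjusted p = 0.210) and Gnal (-0.90, 0.223). Western NaKtide against control NaKtide there called 0 (0%; 1756 at an unadjusted p under 0.05, 6 in the lists; DESeq2 9 higher, 21 lower and 0 of the 50), with Hpca at -0.99 and Rarb, a retinoic acid receptor, at 2.12 (adjusted p = 0.426), or 0.63 without hippocampus western NaKtide 6. In cerebellum libraries, western NaKtide against western called 0 (0%; 679 and 0 in the lists at an unadjusted p under 0.05; DESeq2 1 lower and 0 of the 50), with Spock3 at 0.81 and Ebf1 at -1.15 (adjusted p = 1.00 for both). Western against control called 1 gene (0.00612%; 3192 and 1; DESeq2 62 higher and 92 lower), and the smallest p in the lists was that of Strip2, at 14.2 to 55.9 CPM in western and 5.96 to 20.7 CPM in control libraries (1.26 ± 0.57, adjusted p = 0.233), followed by Ttc12 at -0.65. Control NaKtide against control called 1 gene (0.00612%; 4816 and 4; DESeq2 390 higher and 806 lower), with Ttc12 at -1.08 (adjusted p = 0.0960) and Chrm4 at 2.27 (0.113). Without cerebellum control 5, a rich library, that contrast called 7 of the 50 higher and 1 lower, with 26.5% of all genes. Western NaKtide against control NaKtide called 0 (0%; 396 and 0; DESeq2 0), with Eya1 at -0.55 and Zfp503 at 0.50. The 679 and the 396 genes at an unadjusted p under 0.05 are each fewer than 1 in 20 of the 16338 tested.

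Whether a contrast differed between the region labels was tested in 1 fit over all 42 libraries. That fit had no term for animals, and the labels do not say whether hippocampus and cerebellum libraries shared animals. Its p-values treat all libraries as independent. For control NaKtide against control, 3524 of 17088 genes (20.6%) differed between the labels, and of the medium spiny neuron genes 6 did. Grik3, Chrm4, Rarb, Pde10a and Gnal had a lower log2 change in hippocampus than in cerebellum libraries, and Ttc12 a higher one. Sizes ran from -3.74 ± 1.25 for Rarb to 1.51 ± 0.53 for Ttc12 (SE; edgeR adjusted p from 0.0177 to 0.0433). Without the 3 close libraries 0 of these 6 passed (adjusted p from 0.0544 to 0.146, 5.05% of all genes called), and without the libraries with Xist 0 did either (0.0539 to 0.117, 2.92%). In those fits the differences kept their sign, and Chrm4 was at -3.55 and -3.57, Ttc12 at 1.52 in the first of them, Rarb at -3.24 and -3.26, Pde10a at -2.88 and -2.90, Grik3 at -1.57 and -1.59 and Gnal at -1.33 and -1.35. Hippocampus control, with 4 rich libraries of 6, stood in this contrast against hippocampus control NaKtide, with 0 of 5, and that spread and the groups cannot be told apart. Western NaKtide against western differed in 8.84% of all genes and in 0 of the 50 (0 at an unadjusted p under 0.05), and the other contrasts in 0%.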

How the data were processed

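RNA of 42 mouse brain libraries was sequenced after a stranded mRNA kit, per the labels' protocols. Trimmomatic 0.38, HISAT2 2.1.0, DESeq2 1.20.0 and build GRCm38 are named per the submitters' processing notes, and the names of the read counter and the annotation were not given in the sources used here. For 54232 gene IDs, the authors deposited a raw count, a normalized count (a signal: the count divided by a size factor of its library) and FPKM. Raw over normalized count was 1 factor per library (relative spread 2.5e-16), and FPKM over normalized count 1 factor per gene (2.4e-14), per the deposited values. Symbols were found for 54079 IDs and GENCODE M21 coordinates for 54165. Totals ran from 4669374 to 9521002 counts.

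CPM is the raw count over the library total, times 1000000. Drd2 set the sides, and a gene counted as apart where no rich library fell at or below a poor one. It also needed a mean of at least 1 CPM on a side and, for the stricter count, a ratio of means of at least 4. Slopes and contrasts were fitted on raw counts in edgeR 4.0.16 (quasi-likelihood test after filterByExpr, scaled by TMM; R 4.3.3), with Benjamini-Hochberg adjustment over all genes tested and 0.05 as the limit. A slope is the change in log2 level per unit of log2 Drd2. Fits of 1 region label included its 4 groups. The alternatives were other scalings, limits and filters, DESeq2 1.42.0, the compared groups alone, the replicate number as a block and leaving out libraries. Those with the 3 close libraries left out or with Slc6a3 were chosen after seeing the data. The slope fit and 1 contrast per region label were also run on simulated data, with an outcome that is not reported here and not used above. The members and gene lists were chosen with earlier results of these data known.

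The text names the medium spiny neuron genes and, of those apart with a mean of at least 5 CPM, the 15 largest ratios. For the slopes it names the 8 smallest p in each direction, and for each contrast the 2 medium spiny neuron genes with the smallest p. Lhx8, Ptpn7 and the other low genes apart, Slc17a7, Ttr, Hcrt, Pmch and Xist were chosen after their values were seen. Some genes of the lists are counted but not reported here by name.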

Additional observations from a re-analysis of the deposited data

Results flagged for a closer look

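Drd2, Ppp1r1b and the summed shared medium spiny neuron list in each of the 8 groups made 24 groups of values. In 7 of them a library stood apart from the others of its group by more than Dixon's 95% critical value. That limit stands for about 1 in 20 in independent groups. The 3 measures vary together in the same libraries, the shared list holds Ppp1r1b, and Drd2 chose the sides. The 24 are therefore not independent, and 7 of 24 cannot be set against 1 in 20. Hippocampus western NaKtide 6 stood apart in all 3 measures, with 207 CPM of Drd2, 1906 CPM of Ppp1r1b and 12442 CPM of the shared list. Cerebellum western 1 did so with 982 CPM of Ppp1r1b and 6150 CPM of the shared list. Cerebellum western NaKtide 1 did so with 1631 CPM of Ppp1r1b, and cerebellum control NaKtide 2 with 164 CPM of Drd2. All 4 are among the 5 libraries with the most Drd2, which is itself a measure here, and the first also has the highest Xist.

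In 6 medium spiny neuron genes the log2 change of control NaKtide against control differed between the region labels, hippocampus minus cerebellum. This was by edgeR over all 42 libraries, with no term for animals. The differences were -1.94 for Grik3 (adjusted p = 0.0177), -3.46 for Chrm4 (0.0197), -3.74 for Rarb (0.0321), 1.51 for Ttc12 (0.0407), -3.46 for Pde10a (0.0415) and -1.53 for Gnal (0.0433). Over all genes 20.6% differed, against 6 of these 50. None of the 6 passed without the 3 close libraries or without those with Xist above 5 CPM, while the differences kept their sign (Chrm4 -3.55 and -3.57, Rarb -3.24 and -3.26).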

How the results depend on the processing

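The counts of genes apart and at least 4-fold moved with the choice of libraries. With Drd2 limits of 30 and 15 CPM 14 genes were higher, 12 of them medium spiny neuron genes. With 60 and 5 CPM 101 were higher (31 in the lists) and 15 lower. Among libraries labelled hippocampus 51 were higher and 1 lower, and among those labelled cerebellum 60 higher and 56 lower. TMM factors and the authors' normalized counts each gave 31 higher, 21 in the lists. Leaving out 1 library at a time gave 28 to 38 higher, 19 to 23 in the lists and 0 lower.

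Differences in the share of rich libraries changed sign in 7 cases, all with an adjusted p of 1.00. With limits of 30 and 15 CPM NaKtide in hippocampus libraries stood at 1.01 percentage points. With 60 and 5 CPM the region label stood at 12.5, diet at 4.44, NaKtide at -12.5 and diet in cerebellum libraries at 33.3. Without the 3 close libraries diet and NaKtide in hippocampus libraries were both at 4.76.

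DESeq2 called 3 slopes, 1 of them in the lists. With Drd2 of 15 to under 30 CPM the slopes of Penk (-0.55), Peak1 (0.48), Eps8 (0.44), Nt5dc3 (0.15) and Nrip3 (0.19) changed sign.

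For western NaKtide against western in hippocampus libraries, medium spiny neuron genes called numbered 2 with the replicate block, 5 without libraries with Xist and 4 to 25 leaving out 1 library, against 19. For western against control they numbered 6 without libraries with Xist, 2 without the close ones, 3 with only the 2 groups, 10 by DESeq2 and 0 to 2 leaving out 1 library, against 0. For control NaKtide against control in cerebellum libraries they ran from 0 to 8, against 0. Drd2, never called in cerebellum libraries, changed sign for western against control (-0.69 with the replicate block, -1.18 to 0.41 leaving out 1 library), western NaKtide against control NaKtide (-0.12, and -0.85 to 1.32) and control NaKtide against control (-0.15 to 1.47, the lowest without control NaKtide 2). The causes were not tested. Within a region label, same-numbered libraries of different groups mostly did not deviate together, so the block was not used for pairing. Their correlations ran from -0.598 to 0.747 (median -0.0436) in cerebellum and from -0.566 to 0.475 (median -0.133) in hippocampus libraries. There 3 of 20 and 2 of 22 libraries were closest to their own number. Whether hippocampus and cerebellum libraries of the same group and number came from 1 animal was not checked.

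Limits: 12 and 14 libraries leave wide ranges for genes of few counts, counts below about 1 CPM rest on a few reads, and nothing here separates tissue taken from RNA per cell.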

Other observations

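The 14 Drd2-poor libraries all held neocortical genes, which summed to 842 to 3741 CPM (median 2603), and differed in the other regions they held. Cerebellum western 3, lowest in Drd2, held 225 CPM of Gabra6 and 6680 CPM of summed cerebellar genes, and cerebellum control NaKtide 5 held 133 and 3383 CPM. Cerebellum western NaKtide 2 held 106 CPM of Tph2 and 55.5 CPM of Slc6a4, the synthesis enzyme and transporter of serotonin neurons, and 17.3 CPM of Hoxb5, a gene of the hindbrain and spinal cord. Hippocampus control NaKtide 3 held 388 CPM of Gh and 43.6 CPM of Prl, hormones of the pituitary, and cerebellum control 1 held 184 and 29.1 CPM. Choroid plexus genes summed to 5561 CPM in hippocampus control NaKtide 3 and to 124 CPM in hippocampus western NaKtide 5. Dentate and pyramidal genes were highest in hippocampus control NaKtide 1, with 885 CPM. These genes were picked after their values were seen, and each library is 1 sample.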
